A study of Homo sapiens with 4 samples.

Results

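Homologous recombination repairs a broken chromosome by copying the sister chromatid, and the Fanconi anaemia pathway clears covalent links between the strands of DNA ahead of a replication fork. The genes described here are 37 named members of these pathways and of the checkpoint that signals to them, from the BRCA1 complexes to PARP1. A member was read by the probe sets that the annotation of the array platform pairs with its symbol and with no other symbol, and its value was that of its brightest probe set. By this rule 33 of the 37 members had a value, out of 19775 genes with a value on the array. BRCA2, FANCD2, RBBP8 and FANCA had none and are not analysed here. Together the 33 members had 73 probe sets. The levels of these transcripts were set against the loss of TTF-1, the lung transcription factor encoded by NKX2-1, in NCI-H209 and Lu139, lines established from human small cell lung cancers. Cells of either line were electroporated (200 V, 950 µF) with a control siRNA (siNTC) or with an siRNA against TTF-1 (siTTF-1), and total RNA was hybridised to Affymetrix arrays. The groups were therefore NCI-H209 siNTC, NCI-H209 siTTF-1, Lu139 siNTC and Lu139 siTTF-1, with 1 array in each. All 4 groups went through electroporation, so no untransfected cells enter any comparison. Each line is 1 established cell line, and neither the number of siRNA sequences nor the time to harvest is given in the sources used here.

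In this pathway the MRN complex, which contains RAD50 and NBN, binds the broken end, and the nucleases and helicases EXO1 and BLM lengthen the single-stranded tail. BRCA1 with its partner BARD1 and the bridging protein PALB2 act on that tail, and RAD51B, RAD51C, RAD51D, XRCC2 and XRCC3 form complexes that work there in strand exchange. The Fanconi core complex attaches ubiquitin to FANCI and its partner, while the kinases ATM and ATR, with CHEK1 and CHEK2 below them, hold the cell cycle. Many of these genes are transcribed mainly in S and G2 phase, and small cell lung cancer is known for loss of RB1 and for a high rate of replication.

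NKX2-1 read 596 on the control array and 243 on the siTTF-1 array in NCI-H209, and 780 and 461 in Lu139. Those levels of the targeted gene were 40.7% and 59.1% of control, with a limma adjusted p of 0.0844 across the lines. The median intensity of an array lay between 48.4 and 57.7, and the ratios of 3′ to 5′ probe sets lay between 0.912 and 0.936 for GAPDH and between 1.03 and 1.09 for ACTB. All 8 neuroendocrine markers with a value, of 10 listed, exceeded the expression limit (an intensity of 37.0) on every array, with a summed level from 20120 to 32066. All 3 epithelial markers did so too. Of the other cell types, 1 or 2 of 5 fibroblast markers, 2 of 4 leukocyte markers and 2 of 3 endothelial markers exceeded the limit, with summed levels of 382 to 495, 121 to 140 and 169 to 228. The leukocyte marker PTPRC (9.78 to 11.3) and the endothelial marker CDH5 stayed far below the limit on all arrays. Above it on every array were the fibroblast marker COL1A1 (259 to 362) and the endothelial markers PECAM1 (94.4 to 146) and VWF (61.4 to 75.5). The leukocyte markers CD14 (41.9 to 69.9) and CD3D (41.1 to 51.8) also exceeded it on every array. The part of these markers in the results that follow was not tested.

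After siTTF-1, the transcripts of these members were mostly a little lower, by their median more so in NCI-H209 than in Lu139, and no member passed the test across lines. RAD50 in NCI-H209 (64.5% of control) and XRCC2 in Lu139 (57.9% of control) were the members lowest against their controls. A difference of at least 0.32 on the log2 scale, in either direction, was taken as the size limit. In NCI-H209, 10 of 33 members (30.3%) were lower by that size or more, against 10.9% of the 14632 genes above the expression limit. They were BARD1, RAD54L, RAD50, FANCF, FANCM, BLM, EXO1, CHEK1, TOPBP1 and MDC1. None of the 33 was higher by that size, against 5.98% of all genes. In Lu139, 3 of 32 members (9.38%) were lower past the size limit, XRCC2, FANCI and ATM, against 4.48% of 13996 genes. None of the 32 was higher by that size, against 3.24% of all genes. The member FANCB lay below the expression limit in Lu139 and was left out of these Lu139 counts. At 1.5-fold the only lower member in NCI-H209 was RAD50, 1 of 33 (3.03%), against 3.52% of genes. In Lu139 it was XRCC2, 1 of 32 (3.12%), against 0.936% of genes. The share of members in NCI-H209 was thus not above that of all genes at this stricter limit. Fold changes were taken on log2 values after 18.7 had been added to every intensity, which compresses them for dim probe sets. With 1 array per group, a difference within a line is a size and has no test.

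No member was lower in both lines past the size limit, against 2.45% of 13306 genes, and none was higher in both by that size, against 0.879%. With the size limit set aside, 21 of 32 members (65.6%) lay below their controls in both lines, against 27.5% of those genes. RAD51D, FANCE and TP53BP1 (9.38% of 32) lay above in both lines, against 37.7% of genes. The median log2 difference of the members was -0.19 in NCI-H209 and -0.05 in Lu139, against 0.01 and 0.03 over all genes. The limma fit with a term for line called 0 of 33 members at an adjusted p of 0.05, and 0% of the 14547 genes were called lower and 0% higher. At an unadjusted p under 0.05, limma gave 12 of 33 members (36.4%) as lower, against 9.25% of all genes, and 0 members as higher, against 7.23%. The 12 were BARD1, BRIP1, XRCC2, RAD50, FANCB, FANCI, FANCM, BLM, ATM, CHEK1, TOPBP1 and MDC1, with limma adjusted p from 0.174 for FANCI to 0.298 for XRCC2. That fit pairs the arrays of a line and takes its spread from how the siRNA effect differs between the lines, together with a prior from all genes, and its p-values reflect the spread of these 4 arrays alone, part of which may be technical. The members were chosen with earlier results of these data known, so their shares set against all genes are descriptions. In bulk RNA, fewer cells in the phases that transcribe a gene and less transcript per cell cannot be told apart.

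**Figure D1:**
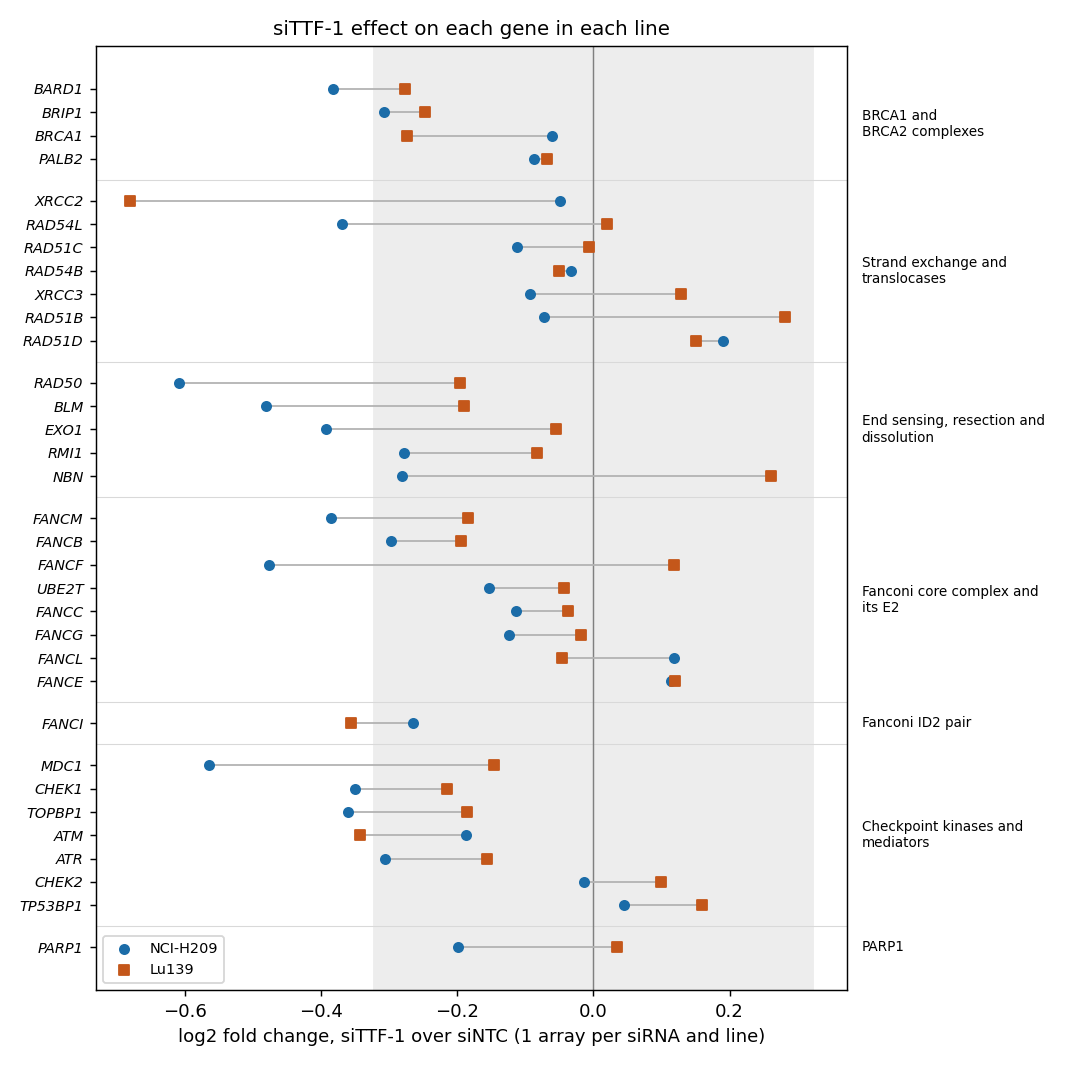
Log2 difference of siTTF-1 over siNTC for the 33 members with a value, in NCI-H209 and in Lu139, ordered by role. Each point is 1 pair of arrays, a grey bar joins the lines, and the shaded band spans the size limit of 0.32 on either side. Most NCI-H209 points lie below 0, with RAD50 at -0.61 and MDC1 at -0.56, while most Lu139 points lie nearer 0, with XRCC2 at -0.68.

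Promoter sequence is shown, as examples, for 5 of the members that lay lower in both lines and whose windows hold at least 1 of the motifs counted. Others, such as BRCA1, ATM and FANCM, met both conditions and are not shown. RefSeq windows of GRCh38.p14, from 250 bases before to 50 bases after a transcription start, were found for 34 of the 37 members, and 35116 windows of 27305 genes served as the background. The motifs, read on both strands, were TTTCCCGC and TTTGGCGC for E2F factors, TTTGAA and TTTAAA for the cell cycle homology region, CCAAT for NF-Y, and CACTTGAG and CTCAAG for NKX2-1. The reverse complement of CACTTGAG contains CTCAAG, and TTTAAA is its own reverse complement. Only the 250 bases before the most upstream start are printed, 5′ to 3′ along the gene, with matches in capitals. The BRIP1 window is chr17:61863529-61863778 (minus strand), the CHEK1 window chr11:125625974-125626223 (plus), the MDC1 window chr6:30717282-30717531 (minus), the BLM window chr15:90717096-90717345 (plus) and the EXO1 window chr1:241847954-241848203 (plus).
BRIP1: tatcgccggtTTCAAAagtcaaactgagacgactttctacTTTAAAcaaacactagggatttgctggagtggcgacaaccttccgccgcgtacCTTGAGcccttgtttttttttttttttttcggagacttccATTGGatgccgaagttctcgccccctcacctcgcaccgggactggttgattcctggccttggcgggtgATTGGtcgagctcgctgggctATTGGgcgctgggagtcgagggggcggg
CHEK1: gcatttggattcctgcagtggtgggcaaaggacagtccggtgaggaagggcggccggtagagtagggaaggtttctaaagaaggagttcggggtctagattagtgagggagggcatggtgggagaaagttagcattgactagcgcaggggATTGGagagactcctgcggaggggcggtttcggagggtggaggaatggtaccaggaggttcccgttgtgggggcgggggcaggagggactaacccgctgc
MDC1: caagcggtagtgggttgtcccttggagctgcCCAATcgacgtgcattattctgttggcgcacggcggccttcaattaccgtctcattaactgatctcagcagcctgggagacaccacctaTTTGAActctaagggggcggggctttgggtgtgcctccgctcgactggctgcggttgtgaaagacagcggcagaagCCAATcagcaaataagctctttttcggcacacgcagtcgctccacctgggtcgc
BLM: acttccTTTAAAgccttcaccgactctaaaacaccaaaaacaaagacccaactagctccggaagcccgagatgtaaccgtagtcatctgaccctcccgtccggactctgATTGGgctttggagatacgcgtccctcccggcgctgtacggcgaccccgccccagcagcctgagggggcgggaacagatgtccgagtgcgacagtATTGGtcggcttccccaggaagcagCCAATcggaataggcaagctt
EXO1: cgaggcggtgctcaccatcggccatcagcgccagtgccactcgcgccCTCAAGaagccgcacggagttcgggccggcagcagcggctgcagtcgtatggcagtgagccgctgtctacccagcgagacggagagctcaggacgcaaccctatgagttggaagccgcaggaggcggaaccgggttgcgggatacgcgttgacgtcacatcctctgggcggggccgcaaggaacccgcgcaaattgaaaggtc
CCAAT or its complement stands 3 times in the BRIP1 sequence, 3 times in that of BLM, 2 times in that of MDC1 and 1 time in that of CHEK1, and the EXO1 sequence holds CTCAAG instead. Over the full windows, CCAAT was found in 16 of 34 members (47.1%), against 39.7% of all genes. TTTGAA or TTTAAA stood in 8 of 34 (23.5%), against 27.9%. TTTCCCGC stood in FANCC, FANCD2 and XRCC2 (8.82%), against 1.98%, and TTTGGCGC in 0 of 34, against 0.795%. The XRCC2 match begins 21 bases after the start. CTCAAG stood in 7 of 34 (20.6%), against 14.8%, and they were BRIP1, EXO1, FANCA, FANCL, RAD51B, RBBP8 and TP53BP1. CACTTGAG stood in 0 of 34, against 0.861%. These matches describe letters in a window, and the windows of BARD1, RAD50, ATR and TOPBP1, which also lay lower in both lines, held none of them.

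Among the BRCA1 complexes, BARD1 and BRIP1 were lower in both lines and PALB2 was close to control. In what follows, a pair of intensities gives the control array and then the siTTF-1 array. BARD1, the RING partner that forms a ubiquitin ligase with BRCA1, read 1317 and 1007 in NCI-H209 without and with siTTF-1, and 114 and 91.0 in Lu139. Its log2 differences were -0.38 and -0.28 (mean -0.33, SD 0.07, n = 2 lines; limma adjusted p = 0.214). Both siTTF-1 arrays lay below their own controls, and the gap between the lines was far wider than that between siRNAs. BRIP1, the helicase that binds the BRCT repeats of BRCA1, read 549 (siNTC) and 440 (siTTF-1) in NCI-H209 and 624 and 523 in Lu139. The siTTF-1 levels were 80.2% and 83.8% of control, and both siTTF-1 arrays read below both control arrays. The limma mean was -0.28 with a 95% confidence interval from -0.51 to -0.04 and an adjusted p of 0.255. BRCA1 itself read 599.5 and 574 on the NCI-H209 arrays and 1055 and 869 on those of Lu139. The log2 differences were -0.06 and -0.27, and a second BRCA1 probe set gave the reverse order with -0.22 and -0.02. PALB2, which joins BRCA1 to BRCA2, read 404 and 379 in NCI-H209, and in Lu139 536 and 510. Its levels were 93.9% and 95.3% of control.

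**Figure D2:**
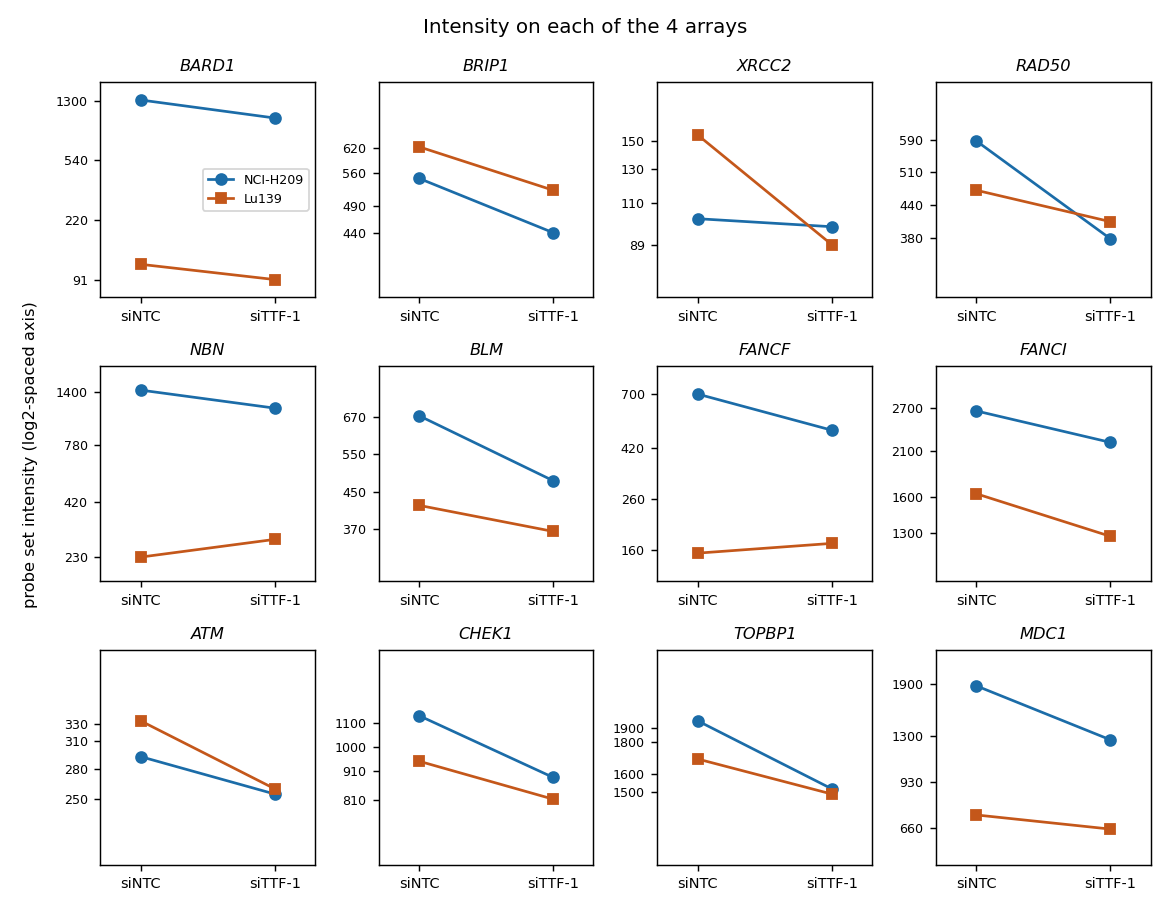
Probe set intensity on a log axis on the control and siTTF-1 array of each line, for 12 members. All but NBN and FANCF were lower at an unadjusted limma p under 0.05, so the panels are not a typical view of the members. Each point is 1 array, and a line joins the arrays of 1 cell line. For BARD1 the arrays of Lu139 (114 and 91.0) lie far below those of NCI-H209 (1317 and 1007), while RAD50 shows its steeper slope in NCI-H209 (587 to 379).

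RAD51B, RAD51C, RAD51D, XRCC2 and XRCC3, which form complexes on the single-stranded tail, were described with RAD54L and RAD54B. These 7 genes had median log2 differences of -0.07 in NCI-H209 and 0.02 in Lu139. XRCC2 had the largest difference of any member in Lu139. It read 154 on the control array and 89.3 on the siTTF-1 array there, and 102 and 97.6 in NCI-H209. The Lu139 control array was the high one, and the other arrays lay within a narrow band. Its log2 differences were -0.05 and -0.68 (mean -0.36, SD 0.45, n = 2 lines), and 1 dim probe set of a kind that can read several transcripts was its only one. RAD51C read 1401 (siNTC) and 1295 (siTTF-1) in NCI-H209 and 1291 and 1286 in Lu139, and so stayed between 92.5% and 99.6% of control. RAD51D read 231 and 266 on the NCI-H209 arrays and 152 and 171 on those of Lu139, above control in both lines (115% and 112%). A second RAD51D probe set differed in Lu139, at -0.28, against 0.15 for the brighter one. RAD51B lay near the expression limit with 48.8 and 45.5 in NCI-H209, and in Lu139 32.4 and 43.4, and XRCC3 was also dim, with 77.9 (siNTC) and 71.9 (siTTF-1) in NCI-H209 and 71.3 and 79.7 in Lu139. Neither of these dim genes lay on the same side of control in both lines at its brightest probe set.

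RAD54L and RAD54B are DNA translocases that act during strand invasion. RAD54L read 206 and 155 on the NCI-H209 arrays and 295 and 299 on those of Lu139. The log2 differences were -0.37 and 0.02, so the lower level was seen in NCI-H209 and the Lu139 arrays were nearly equal. RAD54B read 606 and 592 in NCI-H209, and in Lu139 428 and 412, with differences of -0.03 and -0.05.

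End sensing, resection and dissolution genes had the lowest median of the roles in NCI-H209, -0.39, and -0.08 in Lu139, and 3 of 5 were lower past the size limit in NCI-H209. RAD50, the ATPase of the MRN complex, read 587 (siNTC) and 379 (siTTF-1) in NCI-H209 and 471 and 409 in Lu139. Both siTTF-1 arrays lay below both controls. Its log2 differences were -0.61 and -0.19 (mean -0.40, SD 0.29, n = 2 lines; limma 95% confidence interval -0.70 to -0.10, adjusted p = 0.215). The other RAD50 probe sets gave -0.60 and -0.30 in NCI-H209, and in Lu139 -0.03 and -0.19, so all 3 lay below control in each line. NBN, the MRN subunit that recruits ATM, lay on opposite sides of control in the lines. It read 1432 and 1175 on the NCI-H209 arrays and 229 and 279 on those of Lu139, or 82.1% and 121% of control. Each of the 5 NBN probe sets lay below control in NCI-H209, from -0.32 to -0.20, and above it in Lu139, from 0.02 to 0.26, though only 3 of the 5 exceeded the expression limit in both lines. No test of that difference between lines was possible with 1 array per group.

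EXO1, the 5′ to 3′ exonuclease of long-range resection, read 684 and 517 on the NCI-H209 arrays and 697 and 671 on those of Lu139. The log2 differences were -0.39 and -0.05, and the NCI-H209 siTTF-1 array was the low one of the 4. BLM, the RecQ helicase mutated in Bloom syndrome, read 675 (siNTC) and 479 (siTTF-1) in NCI-H209 and 420 and 366 in Lu139. Its differences were -0.48 and -0.19 (mean -0.33, SD 0.21, n = 2 lines; limma adjusted p = 0.237), with siTTF-1 below control in both lines. RMI1, which works with BLM to undo joined DNA molecules, read 2957 and 2437 on the NCI-H209 arrays and 1363 and 1285 on those of Lu139, or 82.4% and 94.3% of control.

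Within the Fanconi core complex, FANCF and FANCM were lower past the size limit in NCI-H209, no subunit was so in Lu139, and the medians were -0.12 and -0.04. FANCM, the translocase that anchors the complex on chromatin, read 216 and 161 in NCI-H209, and in Lu139 180 and 156. Both siTTF-1 arrays lay below both controls, with log2 differences of -0.38 and -0.18 and a limma adjusted p of 0.262. FANCF, an adaptor subunit, read 697 (siNTC) and 496 (siTTF-1) in NCI-H209 and 156 and 171 in Lu139. Its second probe set gave smaller differences, -0.14 and -0.10, so the direction in Lu139 depended on the probe set. FANCB, another core subunit, read 120 and 94.0 on the NCI-H209 arrays and 36.8 and 29.8 on those of Lu139. Its log2 differences were -0.30 and -0.19, of which the Lu139 value rests on intensities below the limit.

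FANCC, which binds FANCE and FANCF within the core, read 449 and 413 on the NCI-H209 arrays and 241 and 234 on those of Lu139, and FANCG, a partner of FANCA, read 554 and 507 on the NCI-H209 arrays and 361 and 357 on those of Lu139. Their levels lay between 91.5% and 98.7% of control. FANCE, which links the core to its substrate, read 378 (siNTC) and 410 (siTTF-1) in NCI-H209 and 148 and 162 in Lu139, above control in each (109% and 110%). FANCL, the RING ubiquitin ligase, read 1913 and 2080 on the NCI-H209 arrays and 1604 and 1553 on those of Lu139, with opposite small differences of 0.12 and -0.05. UBE2T, the E2 enzyme that works with FANCL, read 3485 and 3133 in NCI-H209, and in Lu139 3115 and 3024, 89.9% and 97.1% of control. FANCI, the measured substrate of the core complex, read 2654 (siNTC) and 2207 (siTTF-1) in NCI-H209 and 1633 and 1272 in Lu139. The log2 differences were -0.26 and -0.36 (mean -0.31, SD 0.06, n = 2 lines; limma 95% confidence interval -0.51 to -0.11, adjusted p = 0.174, the lowest of any member). A second FANCI probe set gave -0.34 and -0.25, and the dimmest gave 0.21 in NCI-H209 and -0.28 in Lu139.

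Checkpoint kinases and mediators had medians of -0.31 in NCI-H209 and -0.16 in Lu139. CHEK1, the kinase activated by ATR at stalled forks, read 1134 and 886 on the NCI-H209 arrays and 945 and 812 on those of Lu139. Both siTTF-1 arrays lay below both controls, at 78.1% and 85.9% of control (limma adjusted p = 0.239). All 4 CHEK1 probe sets were below control in both lines, from -0.41 to -0.11 in NCI-H209 and from -0.29 to -0.10 in Lu139. TOPBP1, which switches ATR on, read 1949 and 1515 in NCI-H209, and in Lu139 1692 and 1486. Its log2 differences were -0.36 and -0.19 (limma adjusted p = 0.225), and again both siTTF-1 arrays lay below both controls. MDC1, the scaffold that binds phosphorylated H2AX, read 1878 (siNTC) and 1264 (siTTF-1) in NCI-H209 and 728 and 657 in Lu139. Its differences were -0.56 and -0.15 (mean -0.35, SD 0.30, n = 2 lines; limma adjusted p = 0.238), and the other MDC1 probe set gave -0.65 and 0.01.

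ATM, the kinase activated at double-strand breaks, read 293 and 255 on the NCI-H209 arrays and 334 and 260 on those of Lu139, or 87.0% and 77.7% of control. The siTTF-1 arrays of the lines were nearly level and below both controls, and 3 of the 4 ATM probe sets above the expression limit lay below control in both lines. ATR read 701 and 564 in NCI-H209, and in Lu139 413 and 369, or 80.4% and 89.3% of control. CHEK2, the kinase below ATM, read 474 (siNTC) and 470 (siTTF-1) in NCI-H209 and 274 and 295 in Lu139, 99.0% and 108% of control. TP53BP1, which shields broken ends from resection, read 716 and 739 on the NCI-H209 arrays and 564 and 632 on those of Lu139, above control in each. PARP1, the break sensor inhibited by olaparib, read 3656 and 3182 on the NCI-H209 arrays and 3890 and 3987 on those of Lu139. The log2 differences were -0.20 and 0.04, so it lay below control in NCI-H209 and near control in Lu139.

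Taking each probe set by itself, 56 of the 73 exceeded the expression limit in both lines. Of these, 36 (64.3%) lay below control in both lines and 5 (8.93%) above it in both, against 29.0% and 35.3% of the 24523 such probe sets on the array. Several probe sets of a gene share its RNA and are not replicates of the siRNA effect. Probe sets of CHEK1, RAD50 and FANCM above the limit lay below control in both lines without exception, whereas those of RAD51C, RAD51D, FANCF, FANCI, MDC1, ATM and TP53BP1 differed in direction in at least 1 line.

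**Figure D3:**
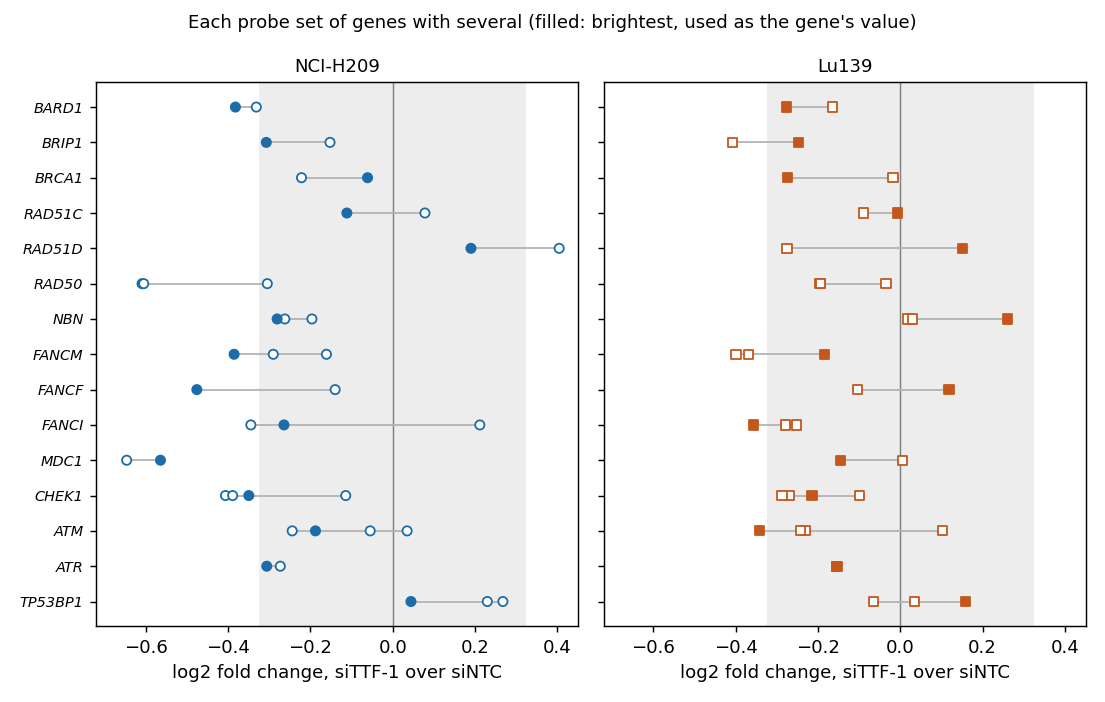
Log2 difference of siTTF-1 over siNTC for the 39 probe sets above the expression limit in both lines of the 15 members with several such probe sets, in NCI-H209 (left) and Lu139 (right). Filled points are the brightest probe set of a gene, open points the others, and the shaded band spans the size limit of 0.32; the CHEK1 points lie below 0 in both panels and those of RAD51D part in Lu139 at 0.15 and -0.28.

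Other genes of the same and neighbouring pathways, from lists that share no gene with the members, had medians nearer to 0 than those of the members. The members and lists were chosen with earlier results of these data known, so this contrast is a description and no test. Of 41 other homologous recombination and Fanconi genes, 16 (39.0%) were below control in both lines and 12 (29.3%) above, against 27.5% and 37.7% of all genes, with medians of -0.05 and -0.01. MND1, which acts in meiotic recombination, read 554 (siNTC) and 390 (siTTF-1) in NCI-H209 and 477 and 366 in Lu139, while RAD51AP1, a DNA-binding accessory factor of recombination, was higher, with 1418 and 1778 on the NCI-H209 arrays and 1258 and 1472 on those of Lu139. Of 21 other checkpoint genes, 10 (47.6%) were below and 4 (19.0%) above in both lines, with medians of -0.08 and -0.02. ETAA1, an activator of ATR, read 224 and 143 in NCI-H209, and in Lu139 156 and 125. CLSPN, the mediator between ATR and CHEK1, read 651 (siNTC) and 376 (siTTF-1) in NCI-H209 and 172 and 162 in Lu139. Of 13 end joining genes, 3 (23.1%) were below and 4 (30.8%) above in both lines, with medians of 0.05 and -0.01. Here LIG4, the ligase of end joining, read 439 and 249 on the NCI-H209 arrays and 560 and 520 on those of Lu139. Past the size limit in NCI-H209, 14.6% of the recombination, 14.3% of the checkpoint and 7.69% of the end joining genes were lower. Mismatch and excision repair genes, described at the end, were nearer to the members there. Of 24, 8 (33.3%) were lower by that size in NCI-H209, against 30.3% of the members and 10.9% of all genes. None of these genes passed an adjusted p of 0.05 in limma. At an unadjusted p under 0.05, limma gave 5 of the 41 recombination genes (12.2%), 3 of the 21 checkpoint genes (14.3%) and 2 of the 13 end joining genes (15.4%) as lower, near the 9.25% of all genes, and RAD51AP1 as the only one higher, against 7.23% of all genes.

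S phase and mitosis genes, measured beside the members as a reference for proliferation, had medians of -0.13 in NCI-H209 and -0.05 in Lu139, with 11 of 21 (52.4%) below control in both lines and 3 (14.3%) above, against the same 27.5% and 37.7% of all genes. Past the size limit, 3 of 21 (14.3%: MKI67, TOP2A and BIRC5) were lower in both lines, against 0 of 32 members and 2.45% of genes. None of the 21 was higher in both by that size, against 0.879% of genes. The largest differences were those of BIRC5, the mitotic survivin, with 4077 and 1997 in NCI-H209, and in Lu139 3505 and 2153. TOP2A, the topoisomerase of dividing cells, read 8316 (siNTC) and 6090 (siTTF-1) in NCI-H209 and 6774 and 5406 in Lu139. CCNE1, the cyclin of S phase entry, was higher, with 366 and 576 on the NCI-H209 arrays and 420 and 481 on those of Lu139, and CDK1 lay at 100.7% and 98.5% of control. None of the 21 passed an adjusted p of 0.05 in limma, and MKI67, TOP2A, BIRC5 and CCNE1 had an unadjusted p under 0.05. The part of these genes in the levels of the members was not tested.

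**Figure D4:**
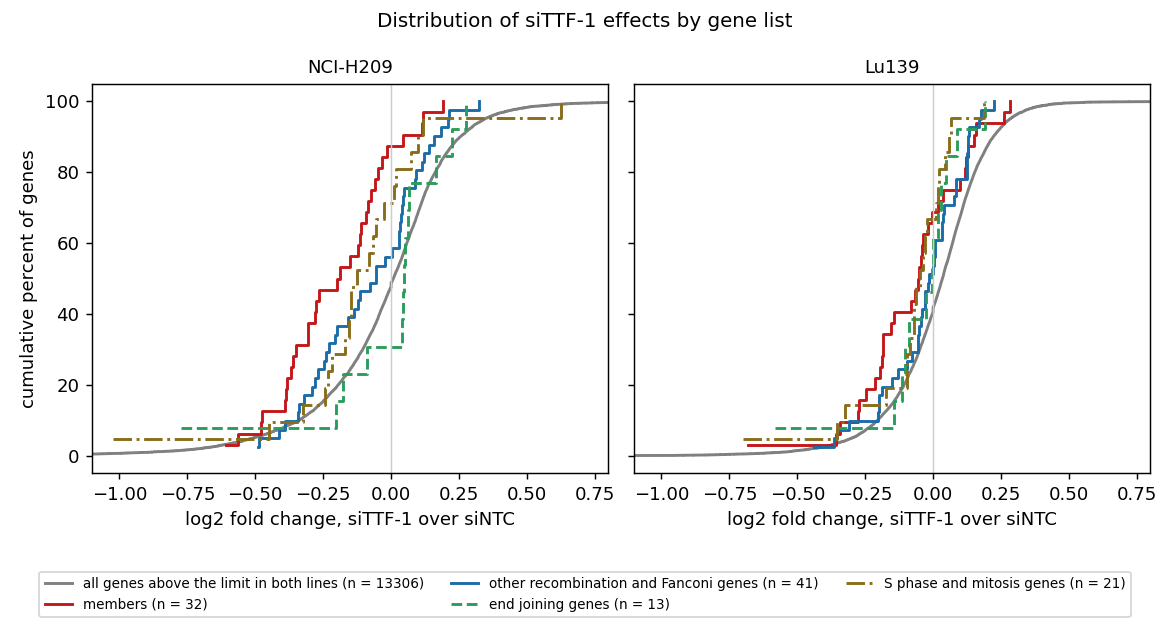
Cumulative percent of genes against the log2 difference of siTTF-1 over siNTC, in NCI-H209 (left) and Lu139 (right), over the genes expressed above the limit in each line. The curve of the 32 members lies to the left of the grey curve of 13306 genes in NCI-H209, with medians of -0.19 and 0.01, and nearer to it in Lu139, with medians of -0.05 and 0.03.

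Between the lines, BARD1, NBN and FANCF had the largest differences at their brightest probe sets, all lower in Lu139, and BRCA1, RAD54L and PALB2 were higher. In the limma fit 17 of 33 members (51.5%) were lower in Lu139 at an adjusted p of 0.05, against 51.7% of all 14547 genes, and 3 (9.09%) were higher, against 18.7%. By 2-fold or more, 7 members (21.2%) were lower, against 20.2% of genes, and none was higher, against 5.4%. These shares are close to those of all genes for the lower calls, and the median of all genes was itself -0.28 in Lu139 against NCI-H209. The members are therefore also given relative to that median. After quantile normalization over the 4 arrays that median became 0.04, and limma then called 9 members lower and 13 higher. The same scaling moved the split of all calls from 73.4% lower and 26.6% higher to 47.2% and 52.8%. In the same direction under both scalings were 9 members lower (BARD1, NBN, FANCB, FANCC, FANCE, FANCF, FANCI, RMI1 and MDC1) and 3 higher (BRCA1, PALB2 and RAD54L). The FANCC difference depended on the probe sets, and shrank from -0.81 to -0.146 with the mean of all of them. Its dimmer probe sets, below the expression limit, gave 0.20 and 0.17.

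Each average below is over the control and the siTTF-1 array of 1 line. The limma intervals and p-values take their spread from how the siRNA effect differs between the lines, with a prior from all genes. They do not measure the spread between independent cultures of a line. BARD1 averaged 1162 in NCI-H209 and 103 in Lu139, 9.69-fold lower (log2 -3.28, limma 95% confidence interval -3.52 to -3.03, adjusted p = 5.73e-07). Relative to the median of all genes it was 7.97-fold lower, and all 3 BARD1 probe sets lay lower in Lu139. NBN averaged 1303 and 254, 4.85-fold lower (limma adjusted p = 9.50e-06), with the 3 probe sets above the expression limit in both lines, and also the other 2, lower in Lu139. FANCF was 3.34-fold lower (596.5 against 164, limma adjusted p = 4.59e-05) and MDC1 2.20-fold lower (1571 against 693, limma adjusted p = 1.29e-04). The second FANCF probe set, also above the expression limit in both lines, gave a smaller log2 difference, -0.90 against -1.74 for the brightest. FANCB averaged 107 and 33.3, the latter below the expression limit, and FANCE 394 and 155. The differences of FANCB, FANCE, MDC1, RMI1, FANCC and FANCI relative to the median of all genes ran from -0.98 to -0.46. In the other direction, BRCA1 averaged 587 in NCI-H209 and 962 in Lu139 (log2 0.69, limma adjusted p = 7.86e-04), RAD54L 180 and 297 (0.68, adjusted p = 0.00210) and PALB2 391 and 523 (0.40, adjusted p = 0.00907). Relative to the median of all genes these were 0.97, 0.96 and 0.68. RAD51B, XRCC3 and FANCM were called under neither scaling, and the calls of the other 18 members depended on the scaling. RAD50, CHEK1 and TOPBP1, which lay lower after siTTF-1, were not called between the lines as deposited, with differences of -0.10, -0.19 and -0.11.

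**Figure D5:**
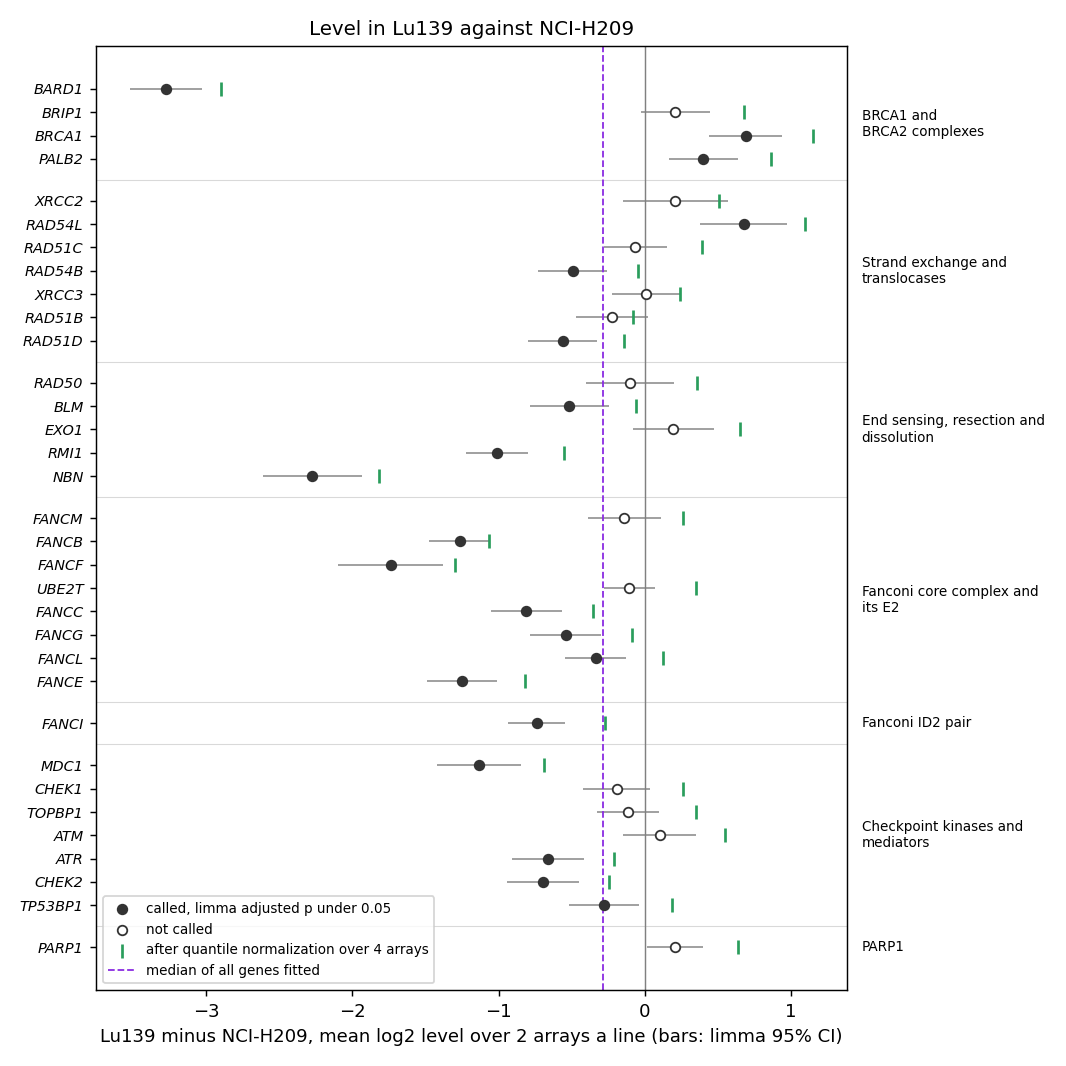
Difference of Lu139 minus NCI-H209 on the log2 scale for the 33 members, with limma 95% confidence intervals as bars and filled points for calls at an adjusted p under 0.05. Green ticks are the same differences after quantile normalization and the dashed line is the median of all genes (-0.28); BARD1 (-3.28) and NBN (-2.28) lie farthest to the left, and BRCA1 (0.69) and RAD54L (0.68) farthest to the right.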

How the data were processed

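Total RNA of the 4 electroporated cultures was column-purified, turned into biotin-labelled cRNA and hybridised, per the labels' protocols. What the authors deposited is 1 linear intensity per probe set and array. The submitters' processing notes name Affymetrix Expression Console. Neither its version nor the summarisation, normalization or genome build is given in the sources used here. Within a line, 2416 (NCI-H209) and 2206 (Lu139) probe sets had exactly equal intensities on both arrays, and 0 did between lines, so levels across lines depend on the scaling. Of 54675 probe sets, 62 were controls, 41091 had exactly 1 symbol, 1801 several and 11721 none in the platform annotation, and names were updated through RefSeq gene identifiers (41037 matched).

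Each gene was represented by its brightest probe set over the 4 arrays. Expression was log2(intensity + 18.7), the pseudocount being the 25th percentile of all values, and the expression limit was set at the 40th percentile of probe set means (log2 5.80, an intensity of 37.0). The fit used limma 3.58.1 in R 4.3.3 over 14547 genes, with line and siRNA as terms, a variance trend, 1 residual and 5.91 prior degrees of freedom, two-sided p-values and Benjamini-Hochberg adjustment. Its code was run on data simulated from the fit's own prior variance with independent noise. That run checks the code and cannot show how the fit behaves on the spread of real arrays. Differences within a line were read by size (a log2 difference of 0.32, and 1.5-fold as a stricter limit). All members are named. Of every other list, the rule named the 3 genes with the largest mean difference in each direction among those of the same sign in both lines, and the text describes some of these. The members and lists were chosen with earlier results of these data known. CDK1 was named after its values were seen. Alternatives changed the pseudocount, the choice of probe sets, the normalization, the expression limit, the variance model, the line term and the size limit. The number of arrays limits the precision.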

Additional observations from a re-analysis of the deposited data

Results flagged for a closer look

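The siTTF-1 array lay below control in NCI-H209 and above it in Lu139 for 7 members, and FANCL lay the other way round. In 4 of these 7 the effects differed between the lines by at least 0.32 on the log2 scale, and the values of those 4 follow, while XRCC3, CHEK2, PARP1 and FANCL differed by less. The difference between the lines was not tested in any of them, since each group is 1 array. For FANCF, an adaptor of the Fanconi core complex, the NCI-H209 effect minus the Lu139 effect was -0.594 on the log2 scale, and its second probe set lay below control in both lines. For NBN, the MRN subunit that recruits ATM, it was -0.541, and the 3 probe sets that passed the expression limit in each line shared this pair of directions. For RAD54L, a DNA translocase of strand invasion, it was -0.388, with a Lu139 effect of 0.02. For RAD51B, whose Lu139 arrays lay close to the expression limit of 37.0 (32.4 and 43.4), it was -0.354.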

How the results depend on the processing

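Members below control in both lines numbered 15 to 22 over the alternatives (21 in the main setting), none was past the size limit in both lines under any alternative run, and limma called 0 members for siTTF-1 under each. Calls over all genes went from 0 to 66 with quantile normalization over the 4 arrays, 41 with quantile normalization within each line and 38 with the expression limit at the 60th percentile, and NKX2-1 and BIRC5 passed under each of these 3. Members lower in NCI-H209 numbered 6 with the mean of all probe sets and 1 at 1.5-fold, and those higher in both lines 1 with that mean. Leaving out probe sets of the _x_at and _s_at kinds gave 1 member higher in NCI-H209, 1 lower in Lu139 and 7 at an unadjusted p under 0.05. A smaller pseudocount gave 1 member higher in Lu139, 1.5-fold gave 1 lower there, and a model without the line term gave 0 at an unadjusted p under 0.05, its spread then holding the difference between lines. Of the siTTF-1 effects of members, 312 of the values under alternatives kept their direction and 5 turned, all near 0. Those that turned were RAD54B (0.003 under both quantile settings), NBN (0.035 over the 4 arrays, 0.03 within a line) and FANCC (0.005 with the mean of all probe sets). Changing the expression limit, the variance trend or the line term cannot alter the effect itself, so values from those settings kept their direction by construction. The 312 is therefore no measure of how stable the effects are. Between the lines, quantile normalization over the 4 arrays gave 9 members lower and 13 higher, and at 2-fold 4 lower and 2 higher. It turned RAD51C (0.394), RAD50 (0.359), FANCL (0.128), FANCM (0.263), UBE2T (0.349), CHEK1 (0.263), TOPBP1 (0.353) and TP53BP1 (0.187). The mean of all probe sets turned RAD51C (0.154), RAD50 (0.082) and ATM (-0.019), and ATM was -0.14 without the _x_at and _s_at probe sets. The cause of these turns was not tested. No array could be left out, since each group is 1 array, and dim members (RAD51B, XRCC3 and FANCB in Lu139) are limited by signal near the expression limit.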

Other observations

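Mismatch and excision repair genes, a list next to the recombination genes, had medians of -0.16 in NCI-H209 and -0.02 in Lu139. Of 24 genes, 12 (50%) lay below control in both lines and 4 (16.7%) above, against 27.5% and 37.7% of all genes, and 8 (33.3%) were lower by a log2 difference of at least 0.32 in NCI-H209 and 0 in Lu139, against 10.9% and 4.48% of all genes. MLH3, a mismatch repair protein that also acts in meiotic crossovers, read 427 and 233 in NCI-H209, and in Lu139 298 and 247. UNG, the glycosylase that removes uracil from DNA, read 3385 (siNTC) and 2506 (siTTF-1) in NCI-H209 and 2914 and 2524 in Lu139, and MSH3 read 321 and 228 on the NCI-H209 arrays and 202 and 171 on those of Lu139. DDB1, which detects ultraviolet damage as part of a ubiquitin ligase, was higher, with 3083 and 3326 in NCI-H209, and in Lu139 2581 and 2804. No gene of the list passed an adjusted p of 0.05 in limma, and 3 of 24 (12.5%: MSH3, MLH3 and UNG) had an unadjusted p under 0.05, all lower, against 9.25% of all genes.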
